A study of Mus musculus with 4 samples.

Results

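Ptgs1, Ptgs2, Ptges, Ptges3, Ptgis, Ptgds and Hpgd encode enzymes that make or break down prostaglandins and prostacyclin, and they were followed here through single sorted stromal cells of mouse colon tumours. They are 7 of the 16305 genes in the deposited tables and were taken by their symbols. No level was required, but the enzymes and all lists were chosen with earlier results of these data known. All 7 had a transcript in a kept well of tumour 2, and 6 of the 7 had one in tumours 1, 3 and 4. Cells sorted as cancer-associated fibroblasts came from APTKA tumours grown orthotopically in the colon of female C57BL6J mice, and every tumour was untreated. No label names the surface markers of the sort. Tumours 1 to 4 each filled 1 plate of 384 wells, with 1 cell meant for each well (SORT-seq, with CEL-Seq2 libraries). There was 1 group of 4 plates and no control tissue, so the comparisons are between cell groups within tumours. No label gives the animal behind a tumour, so p-values measure the spread between these plates, which may be technical.

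Prostaglandins are lipid signals made from arachidonic acid, which phospholipases free from membranes. The cyclooxygenases, constitutive Ptgs1 and inducible Ptgs2, turn it into prostaglandin H2, and terminal synthases set the product: Ptges makes prostaglandin E2, Ptgis prostacyclin and Ptgds prostaglandin D2. Ptges3 was described as a cytosolic prostaglandin E synthase and is better known as p23, a co-chaperone of Hsp90, while Hpgd oxidises and so inactivates prostaglandins. In mouse colon, stromal cells are a known source of prostaglandin E2 that acts on the epithelium during repair.

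Of 1536 wells, 740 reached 1000 transcripts without passing 30% of mitochondrial RNA, namely 43, 250, 243 and 204 in tumours 1 to 4, at medians of 5552, 8516, 8108 and 9474 transcripts. Tumour 1 stood apart: 43.95% of its transcripts were spike-in RNA, against 5.542% to 8.594% in the others, and its kept wells had a median of 14.41% mitochondrial transcripts, against 5.255% to 6.145%. It enters the tests of lamina propria-like wells and of Ptges-carrying wells, whose members are also given without it. Every other gene named from those 2 tests kept its call without tumour 1 (5 of 5 and 9 of 9, highest adjusted p = 0.000964 and 0.0206). The labelled cell type was checked against fixed markers. The 6 general fibroblast markers summed to between 298 and 535 transcripts per 10000 over the plates, and the epithelial, immune and endothelial lists to at most 0.101, 0.0677 and 0.454. Smooth muscle markers summed to between 2.92 and 30.7 and pericyte markers to between 3.09 and 3.84, and 18.6% and 22.5% of the wells classed as fibroblasts held at least 2 of them. Fibroblast wells numbered 640 (86.5%), with 30, 224, 213 and 173 in tumours 1 to 4. Red cell markers, of which 3 of 7 are in the tables, summed to between 26 and 174 per 10000, and 11.6% of fibroblast wells held at least 2 of them.

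Fibroblast wells were divided into states by marker lists that hold no enzyme, and the groups are named after those lists. There were 40 wound-like wells (Mmp13, Mmp10 and Il11), 78 lamina propria-like wells (Adamdec1, Wnt4, Tcf21), 42 telocyte-like wells (such as Foxl1 and Bmp7), 75 inflammatory-like wells (such as Il6 and Cxcl1), 69 adventitial-like wells (such as Pi16 and Dpp4), 34 trophocyte-like wells (such as Grem1 and Rspo3) and 44 matrix-contractile-like wells (such as Acta2 and Postn). Another 14 lymphoid-like and 13 cycling wells were too few to test, and 231 wells met no state. The states are ranges of a score rather than separate types: 48 of the 409 wells with a state lay within 0.25 above the score's threshold, 61 of the 231 without one lay within 0.25 below it, and 240 fibroblast wells met more than 1 list. Outside the fibroblasts stood 35 smooth muscle-like, 24 pericyte-like and 17 interstitial cell of Cajal-like (Cajal-like) wells, as well as 19 red cell-like wells. Levels are transcripts per 10000 of a group's summed transcripts, and levels of different genes are not set against each other.

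The promoters of both cyclooxygenases and of Ptges are shown because each of these 3 genes was called higher in wells that carried another of them. Each window runs from 250 bases before to 50 after the start of the gene (RefSeq, GRCm38.p6, 5′ to 3′ on the strand of the gene). For Ptges this is the start of its protein-coding transcript, at 30903297 in the annotation, and a processed transcript carries the annotated gene further upstream, to 30929863.
Ptgs2, chr1:150099781-150100080, plus strand: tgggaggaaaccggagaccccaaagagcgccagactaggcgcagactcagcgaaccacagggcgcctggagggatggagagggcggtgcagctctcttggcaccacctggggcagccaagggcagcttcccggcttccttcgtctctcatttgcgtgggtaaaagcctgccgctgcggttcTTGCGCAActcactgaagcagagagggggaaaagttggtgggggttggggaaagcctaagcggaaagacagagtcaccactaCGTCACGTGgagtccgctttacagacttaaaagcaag
Ptges, chr2:30903248-30903547, minus strand: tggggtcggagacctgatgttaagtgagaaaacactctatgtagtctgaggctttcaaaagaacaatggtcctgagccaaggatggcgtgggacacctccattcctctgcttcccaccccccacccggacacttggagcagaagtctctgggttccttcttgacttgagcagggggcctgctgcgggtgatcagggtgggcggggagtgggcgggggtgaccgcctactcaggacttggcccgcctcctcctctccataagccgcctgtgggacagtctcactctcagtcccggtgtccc
Ptgs1, chr2:36230176-36230475, plus strand: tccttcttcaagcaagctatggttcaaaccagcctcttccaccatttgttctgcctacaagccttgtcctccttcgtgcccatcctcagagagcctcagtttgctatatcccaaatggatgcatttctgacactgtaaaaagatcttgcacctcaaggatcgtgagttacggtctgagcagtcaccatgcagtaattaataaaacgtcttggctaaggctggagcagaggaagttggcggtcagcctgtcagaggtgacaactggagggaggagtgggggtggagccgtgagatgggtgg
Capitals mark matches to 6 motifs searched on both strands: TATAAA, the NF-kB site, TGANTCA (AP-1), TGACG (the core of the cyclic AMP response element), TTGCNNAA (C/EBP) and CACGTG (the E-box). The Ptgs2 window held the C/EBP motif at -69 and, after the start, an E-box at 17 that overlaps a TGACG read on the minus strand at 14. Over 32851 promoters of the same length, 10.8% held the C/EBP motif, 20.8% TGACG and 7.15% the E-box. The windows of Ptgs1 and Ptges held none of the 6 motifs, and their GC content was 50.7% and 60% beside 59.3% for Ptgs2. A match is a description of letters, and none of these data measure binding.

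Among the cyclooxygenases, Ptgs1 (2:36230426-36252272, plus strand, GRCm38) was a gene of few wells. It had a transcript in 164 of the 640 fibroblast wells (25.6%), and the 32 wells richest in it held 55.02% of its transcripts. Its level over fibroblast wells was 2.35, 0.339, 0.978 and 0.484 per 10000 in tumours 1 to 4 (1.04 ± 0.915, SD, n = 4). Tumour 1 was highest, where 1 lamina propria-like well held 41.2 of the 62.2 transcripts, and without that tumour the mean was 0.600. By group, Ptgs1 averaged 2.59 ± 1.32 in telocyte-like wells (n = 4), 1.72 ± 1.05 in lamina propria-like wells (n = 4) and 1.58 ± 0.310 in wound-like wells (n = 3), and these 3 did not differ beyond their spread. Of the other groups with at least 3 wells in 3 or more tumours, averages ran from 0.128 ± 0.123, in wells with no state, to 0.678 ± 0.0831, in smooth muscle-like wells. Groups with values in only 2 tumours averaged 0.48 in cycling wells and 0 in lymphoid-like and red cell-like wells. The lymphoid-like average leaves out tumour 3, whose 2 wells were fewer than the 3 needed. Those wells stood at 2.63 per 10000, and 1 of the 14 lymphoid-like wells held all of these transcripts. With wells thinned to 4000 transcripts, 51.4% of wound-like, 52.9% of telocyte-like and 32.8% of lamina propria-like wells held a transcript, against 4.35% of pericyte-like wells.

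Each state was tested against the other fibroblast wells of the same tumours with edgeR's quasi-likelihood test and Benjamini-Hochberg adjustment over all genes tested. The other wells of one test include the states of the next, so the tests share wells. Over the 7 states tested, 38 tests of members gave 7 higher and 4 lower calls. Wound-like wells gave 2 higher and 1 lower of 5 members tested, where 5.33% of 8595 genes were called higher and 7.66% lower. Lamina propria-like wells gave 2 higher and 1 lower of 5 (3.76% and 3.4% of 4145 genes), and telocyte-like wells 2 higher and 1 lower of 6 (2.33% and 3.18% of 8922 genes). Inflammatory-like wells gave 1 higher of 6 and none lower (1.41% and 0.941% of 8925 genes), with none lower by DESeq2 and 1 at an unadjusted p under 0.05. Adventitial-like wells gave none higher and 1 lower of 6 (1.95% and 2.52% of 8637 genes), with none higher by DESeq2 and 1 at an unadjusted p under 0.05. Trophocyte-like and matrix-contractile-like wells, each tested in 2 tumours, gave none of 5 under edgeR and none under DESeq2, with 3 and 1 members lower at an unadjusted p under 0.05 and none higher. Under edgeR, Ptgs1 passed as lower in matrix-contractile-like wells in 6 of 11 alternatives (adjusted p = 0.0139 to 0.0198) and Ptges in 1 (0.0384), and Ptges passed as lower in trophocyte-like wells in 2 of 12 (0.0282). In trophocyte-like wells 0.631% of 9028 genes were called higher and 0.62% lower, and in matrix-contractile-like wells 0.588% and 1.1% of 9008. An unadjusted p under 0.05, in either direction, was reached by 1085 of 8925 genes in inflammatory-like and 1301 of 8637 in adventitial-like wells. The numbers were 659 of 9028 in trophocyte-like, 1490 of 9008 in matrix-contractile-like and 1159 of 8922 in telocyte-like wells. Ptges3 was called in none of the 7 states, and Ptgds passed the filter on low counts in none.

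Ptgs1 was called higher in the 3 states where its level was highest. In wound-like wells it stood at 1.58, 1.89 and 1.27 per 10000 in tumours 2 to 4, against 0.276, 0.904 and 0.423 in the other fibroblast wells. The ranges did not overlap, and the log2 fold change was 1.63 (SE 0.29, adjusted p = 0.000167). In telocyte-like wells it stood at 1.68, 2.35 and 1.81, against 0.305, 0.824 and 0.424 (log2 1.73, SE 0.33, adjusted p = 1.36e-05), again without overlap. In lamina propria-like wells it stood at 3.19, 0.902, 1.73 and 1.06 in tumours 1 to 4, against 1.11, 0.302, 0.829 and 0.443 (log2 1.21, SE 0.20, adjusted p = 0.00476). Here the state was higher within each of the 4 tumours while the ranges over tumours overlapped, and without the tumour as a block the adjusted p was 0.0587. Without tumour 1 the call was kept (log2 1.17, adjusted p = 0.00251). Inflammatory-like wells had the lower level in each tumour, 0.288, 0.14 and 0.188 against 0.356, 1.06 and 0.546 in tumours 2 to 4, but the difference did not pass the threshold (log2 -1.16, SE 0.37, adjusted p = 0.186). It passed once tumour 2 was left out (adjusted p = 0.0415).

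**Figure D1:**
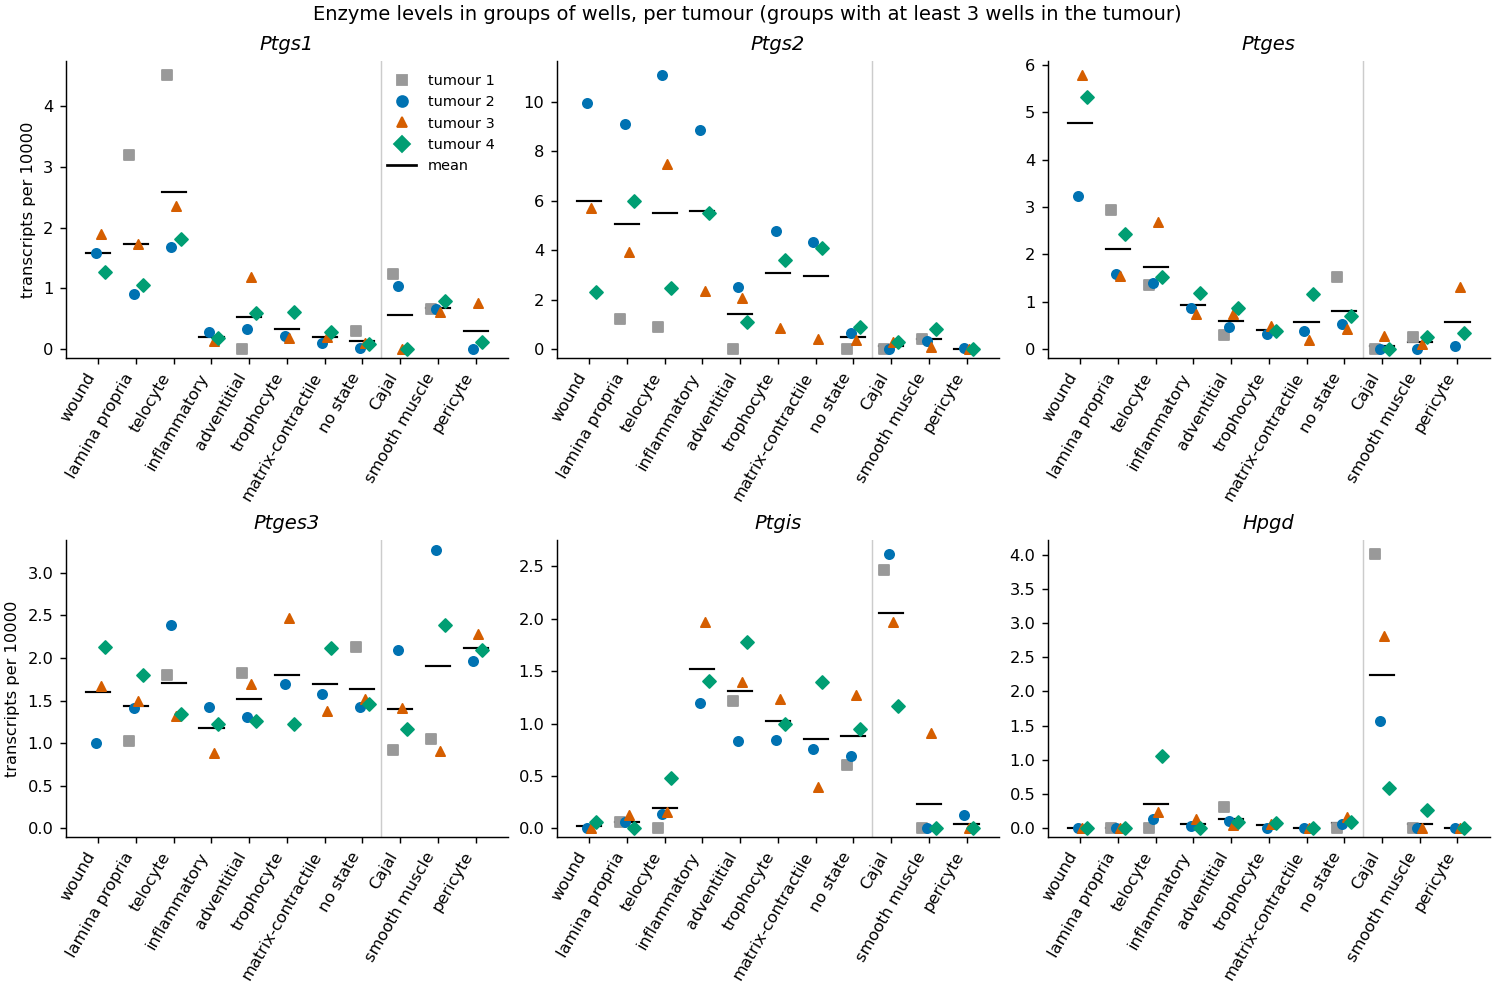
Transcripts per 10000 of 6 enzymes by cell group, 1 point per tumour with at least 3 wells of the group and a line at the mean; fibroblast states stand left of the dividing line and the Cajal-like, smooth muscle-like and pericyte-like wells right of it. Ptges is highest in wound-like wells (3.23, 5.79 and 5.31), Ptgis is near 0 in wound-like and lamina propria-like wells, and Hpgd is highest in Cajal-like wells.

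Ptgs2 (1:150100031-150108227, plus strand), the inducible cyclooxygenase, was found in more wells and was spread over more states. It had a transcript in 258 of 640 fibroblast wells (40.3%), and the 32 richest wells held 56.1% of its transcripts, with 202 in a single cycling well of tumour 2. Its level was 0.793, 5.86, 2.63 and 2.66 per 10000 in tumours 1 to 4 (2.99 ± 2.11, SD, n = 4), highest in tumour 2 and lowest in tumour 1. The levels of 4 states lay close together: wound-like wells at 5.98 ± 3.83 (n = 3), inflammatory-like wells at 5.57 ± 3.26 (n = 3), telocyte-like wells at 5.49 ± 4.68 (n = 4) and lamina propria-like wells at 5.05 ± 3.33 (n = 4). Their SDs cover the distances between them. A single wound-like well held 114 of the state's 139 transcripts in tumour 2, and another held 68.6 of 106 in tumour 3. Wells with no state averaged 0.477 ± 0.384. After thinning, a transcript was found in 60.6% of inflammatory-like, 55.9% of telocyte-like, 48.6% of wound-like and 46.3% of lamina propria-like wells, against 4.35% of pericyte-like wells. Inflammatory-like wells held 30.7% of the Ptgs2 transcripts and 15.3% of all transcripts of the kept wells.

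Lamina propria-like wells were called higher for Ptgs2, at 1.21, 9.13, 3.9 and 5.97 per 10000 in tumours 1 to 4, against 0.185, 5.65, 2.38 and 2.43 in the other fibroblast wells (log2 0.90, SE 0.23, adjusted p = 0.0367). The state was higher within each tumour, but the spread between tumours was larger than the difference. The call was kept without tumour 1 (log2 0.79, adjusted p = 0.0059) and lost without tumour 2, 3 or 4 (adjusted p = 0.0764, 0.111 and 0.266) and without the tumour as a block (0.701). It was also lost where the state was set by Leiden clusters (0.103) or by a higher marker score (0.289). Adventitial-like wells were called lower, at 2.5, 2.05 and 1.12 in tumours 2 to 4, against 6.22, 2.74 and 2.98 (log2 -1.01, SE 0.21, adjusted p = 0.0202). The ranges did not overlap, and the call was lost without tumour 4 (adjusted p = 0.122), without the block (0.251) and with a higher marker score (0.0713). In wound-like wells the level was 9.98, 5.72 and 2.31, against 5.66, 2.38 and 2.69, higher in 2 of 3 tumours (log2 0.63, adjusted p = 0.0835; 0.00385 without tumour 4). Inflammatory-like wells were likewise higher in 2 of 3 tumours, at 8.88, 2.34 and 5.52 against 4.85, 2.65 and 2.05 (log2 0.86, adjusted p = 0.135; 0.00443 without tumour 3). Neither of these passed the threshold in the main setting. The wound-like difference passed in 4 of 17 alternatives. Besides leaving out tumour 4, these were Rn45s left out, wells of at least 2000 transcripts and whole molecular identifiers. For inflammatory-like wells 3 of 17 passed: Leiden clusters, no filter on low counts and tumour 3 left out. Without tumour 4 the wound-like test rests on tumours 2 and 3, where a single well in each held most of the wound-like Ptgs2 transcripts.

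Of the terminal synthases, Ptges (2:30889471-30929863, minus strand), the inducible prostaglandin E synthase, was highest in wound-like wells. It stood at 3.23, 5.78 and 5.31 per 10000 in wound-like wells of tumours 2 to 4, against 0.675, 0.973 and 1.01 in the other fibroblast wells. Every wound-like value was above every other value, and the log2 fold change was 2.38 (SE 0.21, adjusted p = 2.93e-09). A transcript of Ptges was found in 36 of 40 wound-like wells (90.0%, Clopper-Pearson 95% interval 76.3 to 97.2), in 62 of 78 lamina propria-like wells (79.5%) and in 26 of 42 telocyte-like wells (61.9%), against 0 of 19 red cell-like wells, whose median depth was 3281 transcripts, against 10608 in wound-like wells. With each well thinned to 4000 transcripts the shares were 77.1%, 47.8% and 55.9%, against 19.4% in wells with no state. Wound-like wells held 25.4% of the Ptges transcripts and 5.58% of all transcripts of the kept wells.

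The next levels of Ptges were 2.12 ± 0.681 in lamina propria-like wells (n = 4) and 1.74 ± 0.628 in telocyte-like wells (n = 4), which did not differ beyond their spread. In lamina propria-like wells it was higher within each of the 4 tumours, 2.12 ± 0.681 against 1.05 ± 0.257, but did not pass the threshold (log2 0.78, SE 0.22, adjusted p = 0.0629; 0.0808 without tumour 1). In telocyte-like wells the test gave log2 0.58 (adjusted p = 0.465) and in adventitial-like wells log2 -0.78 (adjusted p = 0.0556). The adventitial-like level was lower in each of 3 tumours, and the difference passed in 6 of 17 alternatives (lowest adjusted p = 0.0127). Over fibroblast wells the level was 2.11, 0.799, 1.33 and 1.31 in tumours 1 to 4 (1.39 ± 0.542, SD, n = 4), and 314 of 640 wells had a transcript (49.1%). The wound-like wells also carried 31.4 red cell marker transcripts per 10000, against 2.2 to 9.02 in the other states and 158 in wells with no state, and the part of this RNA in the levels was not tested.

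Ptges3 (10:128058954-128077272, plus strand), the p23 co-chaperone, was spread over the most wells. Its level was 1.28, 1.49, 1.53 and 1.59 per 10000 in tumours 1 to 4 (1.47 ± 0.133, SD, n = 4), and 427 of 640 fibroblast wells had a transcript (66.7%). Groups with at least 3 wells in 3 or more tumours averaged between 1.18 in inflammatory-like wells and 2.12 in pericyte-like wells. Of the groups with values in only 2 tumours, cycling wells averaged 2.79 ± 1.33 and lymphoid-like wells 0.816 ± 0.988, and red cell-like wells had no transcript. The 32 richest wells held 25.5% of its transcripts, against 37.3% to 56.1% for Ptges, Ptgis, Ptgs1 and Ptgs2. In wound-like wells its log2 fold change was 0.03 (SE 0.25, adjusted p = 0.965).

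**Figure D2:**
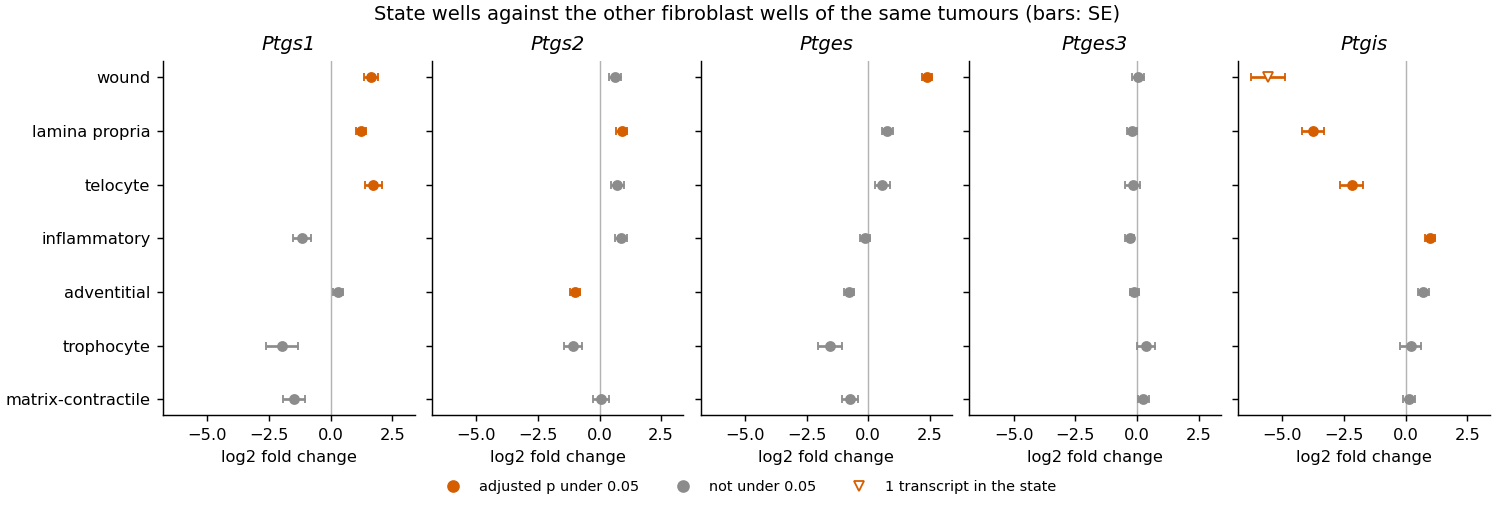
Log2 fold change (horizontal axis, with bars of 1 SE) of 5 enzymes in each fibroblast state against the other fibroblast wells of the same tumours; orange marks an adjusted p under 0.05 and the open triangle a state with 1 transcript, whose fitted fold is no measured size. Ptgs1 is higher and Ptgis lower in wound-like, lamina propria-like and telocyte-like wells, and Ptges3 stays near 0 throughout.

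Ptgis (2:167191805-167240604, minus strand), the prostacyclin synthase, was lower in the same 3 states in which Ptgs1 was called higher. In wound-like wells it had 1 transcript in all, at 0, 0 and 0.0577 per 10000 in tumours 2 to 4, against 0.864, 0.952 and 1.11 in the other fibroblast wells, where it had 709. The level in the other wells was 48.1 times that in wound-like wells, with a 95% counting interval of 8.61 to 1904 (adjusted p = 7.36e-07). In lamina propria-like wells it stood at 0.0638, 0.0564, 0.122 and 0 in tumours 1 to 4, against 0.738, 0.873, 1.03 and 1.11 (log2 -3.75, SE 0.44, adjusted p = 0.000492; 3.7e-06 without tumour 1). In telocyte-like wells it stood at 0.14, 0.16 and 0.477, against 0.84, 0.962 and 1.06 (log2 -2.19, SE 0.48, adjusted p = 0.000204; 0.0578 without tumour 3). The ranges did not overlap in any of the 3 states.

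Inflammatory-like wells were the one state called higher for Ptgis, at 1.19, 1.96 and 1.41 per 10000 in tumours 2 to 4, against 0.698, 0.78 and 0.953 in the other fibroblast wells (log2 0.98, SE 0.20, adjusted p = 0.0308). The ranges did not overlap, but the call did not survive the loss of any one of the tumours (adjusted p = 0.0728 without tumour 2, 0.0825 without tumour 3 and 0.0542 without tumour 4), DESeq2 gave 0.0808 and a higher marker score 0.245. Adventitial-like wells had 0.832, 1.4 and 1.78, against 0.822, 0.778 and 0.877 (log2 0.71, SE 0.22, adjusted p = 0.117; 0.00662 without tumour 2). Trophocyte-like wells averaged 1.03 ± 0.196 (n = 3), wells with no state 0.883 ± 0.30 (n = 4) and matrix-contractile-like wells 0.849 ± 0.508 (n = 3), levels that did not differ beyond their spread. Over fibroblast wells the level was 0.339, 0.823, 0.882 and 1.03 in tumours 1 to 4 (0.769 ± 0.30, SD, n = 4), and 217 of 640 wells had a transcript (33.9%).

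Outside the fibroblasts, Cajal-like wells, named after the pacemaker cells of gut muscle, stood out for Hpgd (8:56294585-56321043, plus strand), the enzyme that inactivates prostaglandins. Hpgd was rare in fibroblast wells, with a transcript in 39 of 640 (6.09%) and a level of 0.0377, 0.0311, 0.0921 and 0.0942 per 10000 in tumours 1 to 4. Cajal-like wells had 4.01, 1.57, 2.81 and 0.584 (2.24 ± 1.49, SD, n = 4), each above the fibroblast level of its own tumour. Those 17 wells held 33.0% of the 85.0 Hpgd transcripts and 1.36% of all transcripts of the kept wells. A single well of tumour 1 held 12.02 of them, and without it the share was 21.9%. Ptgis in Cajal-like wells was 2.46, 2.62, 1.97 and 1.17 (2.06 ± 0.653, SD, n = 4), in 9 of 17 wells.

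Sums of 3 to 5 Cajal-like wells were below the minimum of 10 for the main test. With sums of at least 5 wells, in tumours 3 and 4, edgeR called 3 of 6 members lower and none higher against the fibroblast wells (4.85% of 9006 genes lower and 1.08% higher). These were Ptgs2 (adjusted p = 8.98e-06), Ptges (0.00406) and Ptgs1 (0.0282), which had 0 transcripts there, and Hpgd gave log2 3.29 (SE 1.13, adjusted p = 0.0577). With sums of at least 3 wells, a setting added after seeing the data, Ptgs2 (2 transcripts, adjusted p = 0.000575) and Ptges (1 transcript, 0.00497) were again lower and Ptgs1 was not called (0.271), where 11.2% of 2278 genes were lower and 6.06% higher. The test of Ptgis gave log2 1.15 (adjusted p = 0.145) under that setting and -0.06 (0.99) with 5 wells, and Hpgd did not pass the low-count filter with 3.

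Among fibroblast states, telocyte-like wells were called higher for Hpgd, at 0.14, 0.239 and 1.05 per 10000 in tumours 2 to 4, against 0.0284, 0.0757 and 0.0514 (log2 2.73, SE 0.71, adjusted p = 0.00346). This rested on 18 transcripts against 37, and tumour 4 held most of them: without it the log2 fold change was 1.61 (adjusted p = 0.847). No Hpgd transcript was found in the wound-like, lamina propria-like or matrix-contractile-like wells. Against a floor of 3 transcripts over the group, Hpgd was at least 1.24-fold lower in wound-like wells, 2.35-fold lower in lamina propria-like wells and 1.96-fold lower in matrix-contractile-like wells than in the other fibroblast wells of the same tumours. Ptgds (2:25466709-25470046, minus strand) had 1 transcript, in an adventitial-like well of tumour 2.

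Smooth muscle-like wells, tested against the fibroblast wells in tumours 3 and 4, gave 2 lower and no higher calls of 6 members, where 3.64% of 9251 genes were called lower and 2.05% higher and the median log2 fold change of all genes was -0.31. DESeq2 gave 1 lower and none higher, and no member was higher at an unadjusted p under 0.05. Ptgs2 stood at 0.101 and 0.798 per 10000, against 2.63 and 2.66 in fibroblast wells (log2 -3.38, SE 0.63, adjusted p = 5.29e-06), on 4 transcripts. Ptges stood at 0.101 and 0.266, against 1.33 and 1.31 (adjusted p = 0.000986; 0.153 under DESeq2), a level in fibroblast wells 9.03 times that in smooth muscle-like wells, with a counting interval of 2.49 to 74.7. Ptgs1 did not pass the threshold there, at 0.605 and 0.798 against 0.977 and 0.483 (adjusted p = 0.911). In pericyte-like wells of tumours 2 and 4, with sums of at least 5 wells, 4 of 5 members were lower and none higher (6.13% of 8943 genes lower and 3.66% higher). The adjusted p was 2.32e-27 for Ptgs2, 7.95e-06 for Ptgis, 4.87e-05 for Ptges and 0.0158 for Ptgs1. Over all 24 pericyte-like wells Ptgs2 had 1 transcript and Ptgis 2. Tumour 3, with 4 of these wells, did not enter that test. It held 12 of their 16 Ptges transcripts, at 1.31 per 10000 against 1.33 in its fibroblast wells. With sums of at least 3 wells Ptgs2, Ptgis and Ptges (adjusted p = 0.0463) were called lower again. Ptgs1 was not (0.115), where 6.36% of 8982 genes were lower and 3.14% higher.

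The wells were then read the other way, by which further members were higher in fibroblast wells with at least 1 transcript of a given enzyme than in fibroblast wells with none. Carrier wells were deeper: wells with Ptgs2 had a median of 13774 transcripts, against 6218 in wells without it, and wells with Ptges 12675 against 5769. Levels per 10000 allow for depth, and the counts of shared wells below were taken with and without thinning. Over 5 enzymes and 21 tests of members there were 5 higher calls and 1 lower. By enzyme, Ptgs1 wells gave 2 higher of 4 (2.1% of genes were called higher and 2.17% lower), Ptgs2 wells 1 of 4 (0.181% and 0.283%) and Ptges wells 2 of 4 (0.313% in each direction). Ptgis wells gave 1 lower of 4 (1.61% of genes were called higher and 2.48% lower). Hpgd wells gave none of 5 under edgeR and DESeq2, with 1 at an unadjusted p under 0.05 (0.239% of genes higher and 0.629% lower). That member was Ptges, lower at an adjusted p of 0.0593, which passed in 5 of 10 alternatives (0.00614 to 0.0417). In Hpgd wells 775 of 9219 genes reached an unadjusted p under 0.05 in either direction. The numbers were 1429 of 8855 in Ptgs1 wells, 854 of 8844 in Ptgs2 wells and 677 of 8312 in Ptges wells.

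Wells with Ptgs1 had more Ptgs2 and more Ptges. Ptgs2 stood at 10.5, 4.27 and 4.10 per 10000 in Ptgs1 wells of tumours 2 to 4, against 3.56, 1.39 and 1.90 in wells without Ptgs1 (log2 1.40, SE 0.15, adjusted p = 0.00107). Ptges stood at 1.07, 2.12 and 2.03, against 0.663, 0.737 and 0.931 (log2 1.08, SE 0.17, adjusted p = 0.00771; 0.0767 without tumour 4). Neither pair of ranges overlapped. In Ptgs2 wells Ptgs1 was at 0.404, 1.32 and 0.655, against 0.157, 0.641 and 0.279 (log2 1.22, SE 0.18, adjusted p = 0.0215; 0.0645 without tumour 2 and 0.19 under DESeq2). The ranges over tumours overlapped, with the carriers higher in each tumour.

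Wells with Ptges had more of both cyclooxygenases. Ptgs2 was at 1.21, 7.06, 3.69 and 3.28 per 10000 in Ptges wells of tumours 1 to 4, against 0, 3.70, 0.870 and 0.923 in wells without Ptges (log2 1.66, SE 0.26, adjusted p = 0.0132; 0.257 without tumour 3 and 0.0706 without tumour 4). Ptgs1 was at 3.35, 0.402, 1.26 and 0.566, against 0.434, 0.223, 0.509 and 0.25 (log2 1.35, SE 0.25, adjusted p = 0.0308). This call was lost without tumour 2, 3 or 4 (adjusted p = 0.0656, 0.363 and 0.101). Without tumour 1 both were called, Ptgs2 at log2 1.57 (adjusted p = 0.00862) and Ptgs1 at 1.13 (0.0219). Carriers were higher within each of the 4 tumours for both genes.

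Wells with Ptgis had less Ptges, at 0.559, 0.536 and 0.806 per 10000 in tumours 2 to 4, against 1.09, 1.83 and 1.96 in wells without Ptgis. The ranges did not overlap (log2 -1.28, SE 0.19, adjusted p = 0.00543), and all 15 alternatives that could be fitted kept the call, with a highest adjusted p of 0.0427. Ptgs1 was lower in Ptgis wells in each tumour without passing the threshold (log2 -0.66, SE 0.17, adjusted p = 0.0732). Ptgs2 in Ptgis wells gave log2 0.22 (SE 0.18, adjusted p = 0.649).

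The count of shared wells after thinning 507 fibroblast wells to 4000 transcripts is given as a description with no test. The number expected is that of independent carriers within each tumour. Ptgs1 and Ptges shared 45 wells where 29.2 were expected (a ratio of 1.54), Ptgs1 and Ptgs2 43 where 31.4 were expected (1.37), and Ptgs2 and Ptges 75 where 56.1 were expected (1.34). Ptges and Ptgis shared 25 where 34.0 were expected (0.736), and Ptgs2 and Ptgis 29 where 39.9 were expected (0.727). Without thinning, over 640 wells, the first 3 ratios were 1.5, 1.57 and 1.42 and the last 2 were 1.02 and 1.15, so that Ptges with Ptgis and Ptgs2 with Ptgis lay below 1 only after thinning. With thinned wells and the expectation taken within both tumour and state, the first 3 ratios were 1.07, 1.10 and 1.12 and the last 2 were 1.01 and 0.873. All 5 ratios were nearer to 1 within states than within tumours. Ptgs1 and Ptgis, on 17 shared wells, had a ratio of 0.866 within tumours and of 1.38 within states.

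**Figure D3:**
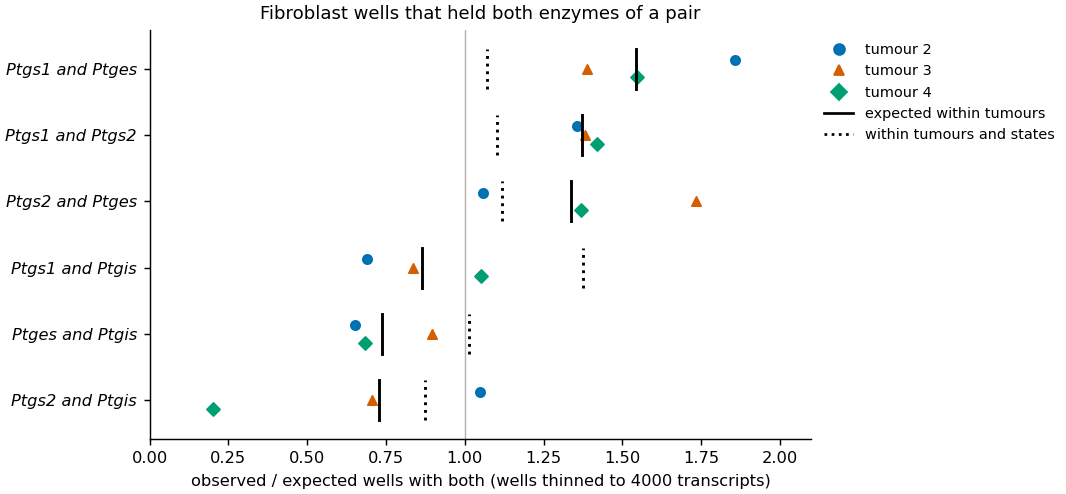
Ratio of shared to expected wells for pairs of enzymes after thinning to 4000 transcripts; points are tumours 2 to 4, the solid line is the ratio within tumours and the dotted line the ratio within tumours and states, and tumour 1, with 22 thinned wells, is not plotted. Ptgs1 with Ptges lies at 1.86, 1.39 and 1.55 in tumours 2 to 4, and Ptgs2 with Ptgis spreads from 0.201 to 1.05.

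Among wells with a cyclooxygenase, the terminal synthase found differed by state, in counts of pooled wells with no test. Such counts do not separate pairing within a well from a state's own level: 36 of 40 wound-like wells had Ptges at all. After thinning, Ptgs2 and Ptges shared 13 wound-like wells (13.1 expected within the state) and 18 lamina propria-like wells (14.8). They shared 11 telocyte-like (10.6), 15 inflammatory-like (14.5) and 3 adventitial-like wells (2.93), and 5 with no state (4.06). Of 322 fibroblast wells with Ptgs1 or Ptgs2, 137 had Ptges without Ptgis, 42 had Ptgis without Ptges, 77 had both and 66 had neither. Among wound-like wells 34 of 37 had Ptges without Ptgis (10 of 11, 12 of 13 and 12 of 13 in tumours 2 to 4) and none had a transcript of Ptgis. Over these pooled wells a floor of 3 counts in 37 allows a share of wells with a transcript of up to 8.11%, by counting error only. Lamina propria-like wells had 44 of 54 with Ptges without Ptgis and telocyte-like wells 22 of 32. Inflammatory-like wells had 13 of 53 with Ptges without Ptgis, 23 with both and 10 with Ptgis without Ptges, and adventitial-like wells 4, 17 and 8 of 34. These are wells as deposited. Thinned to 4000 transcripts, Ptges without Ptgis was in 20 of 27 wound-like, 13 of 43 inflammatory-like and 3 of 23 adventitial-like wells. For lamina propria-like and telocyte-like wells the thinned counts were 20 of 38 and 15 of 27. Both synthases were then in 5 of 43 inflammatory-like, 1 of 23 adventitial-like and 12 of 232 fibroblast wells, so most wells with both were seen only at full depth. No well was removed as a doublet, and the part of doublets in shared wells was not tested.

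The other genes of the pathway were taken as a list of 28, of which 25 are in the tables. Wound-like wells gave 3 higher and 2 lower of 16 tested (median log2 -0.03), where 5.33% of all genes tested were called higher and 7.66% lower. Telocyte-like wells gave 3 higher and none lower of 17 (2.33% and 3.18% of all genes), with 3 lower at an unadjusted p under 0.05 and none by DESeq2. Akr1b8, an aldo-keto reductase, was at 11.7 ± 2.94 per 10000 in wound-like wells, against 1.06 ± 0.544 in the others (SD, n = 3; log2 3.51, SE 0.22, adjusted p = 3.30e-12). It was lower in lamina propria-like (log2 -1.61), adventitial-like (-1.71) and trophocyte-like wells (-1.67, not called by DESeq2). The other wells of these tests include the wound-like wells. Over tumours 2 to 4 those held 596 Akr1b8 transcripts, against 756 in the other fibroblast wells, so the lower calls partly restate the wound-like one. Pla2g4a, the cytosolic phospholipase that frees arachidonic acid, was higher in telocyte-like wells at 2.40 ± 0.509, against 0.470 ± 0.0983 (log2 2.13, SE 0.32, adjusted p = 5.94e-09). It was also higher in lamina propria-like wells, at 1.72 ± 0.463 against 0.612 ± 0.268 (log2 1.44, SE 0.29, adjusted p = 0.0134), a state where 4 of the list were tested, with 2 higher and 1 lower.

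Among receptors, Ptger4, a prostaglandin E2 receptor, was higher in lamina propria-like wells at 1.07 ± 0.499, against 0.183 ± 0.129 (SD, n = 4; log2 2.63, SE 0.28, adjusted p = 0.000275). Ptger3, another receptor of prostaglandin E2, was higher in trophocyte-like wells (log2 2.21, SE 0.57, adjusted p = 0.0107), where DESeq2 called none of the list. It had 0 transcripts in wound-like wells, against 133 in the others. Ptgir, the prostacyclin receptor, was higher in wound-like wells at 0.494 ± 0.133, against 0.121 ± 0.0230 (log2 1.97, SE 0.50, adjusted p = 0.00656), a state nearly without Ptgis. Tbxas1, thromboxane synthase, was higher in telocyte-like (log2 2.71, SE 0.68) and wound-like wells (log2 2.28, SE 0.64), with adjusted p of 0.00211 and 0.0153. Abcc4, a transporter that can export prostaglandins, was higher in telocyte-like wells (log2 2.39, SE 0.61, adjusted p = 0.00311). Ptgr1, a reductase of prostaglandin metabolites, had 1 transcript in wound-like wells, against 232 in the others (adjusted p = 0.00436).

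In Ptgs1 wells the list gave Pla2g4a (log2 1.56, SE 0.28, adjusted p = 0.0139) and Akr1b8 (log2 1.77, SE 0.14, adjusted p = 0.000181) higher and Ptgfr, the prostaglandin F receptor, lower (log2 -1.61, SE 0.38, adjusted p = 0.0471), of 15 tested. In Ptgis wells, 1 of 17 was higher, Ptger3 (log2 1.88, SE 0.39, adjusted p = 0.0267), and 4 were lower: Akr1b8 (log2 -1.61), Pla2g4a (-0.98), Ptger4 (-1.40) and Ptger2 (-2.02). Their adjusted p ran from 0.0027 for Akr1b8 to 0.0496 for Ptger2. DESeq2 called none of the list higher and 1 lower in Ptgis wells, and 3 higher and none lower in Ptgs1 wells. By edgeR 1.61% of all genes were called higher and 2.48% lower in Ptgis wells, and 2.1% and 2.17% in Ptgs1 wells. In Ptgs2 wells and in Ptges wells edgeR called none of the 14 and 12 tested, with 2 and 4 at an unadjusted p under 0.05. DESeq2 called none in Ptgs2 wells and 1 in Ptges wells.

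Of the genes with the largest fold changes beside an enzyme, Il1rl1, the interleukin 33 receptor, led in Ptgs1 wells at 14.4 ± 8.13 per 10000, against 0.639 ± 0.363 in wells without Ptgs1 (SD, n = 3; log2 4.46, SE 0.15, adjusted p = 5.69e-07). In wound-like wells it was at 64.8 ± 29.4, against 1.6 ± 1.74 (log2 5.72, SE 0.31, adjusted p = 4.76e-13). It was higher in Ptges wells too (log2 3.13, SE 0.48, adjusted p = 0.0137), though not called there by DESeq2. In Ptgis wells it was lower (log2 -4.10, SE 0.17, adjusted p = 6.73e-06). Stc1, a secreted glycoprotein hormone, was higher in Ptgs1 wells (log2 3.70, SE 0.35) and lower in Ptgis wells (log2 -4.81, SE 0.32). Mmp9, a gelatinase, was higher in Ptgs1 wells (log2 3.77) and Ptges wells (log2 3.25), but 61.2% of its transcripts came from 1 wound-like well. The other leaders in Ptgs1 wells were Cpm (log2 4.05) and 9930013L23Rik (3.72), and Car3 (-5.49), Ttn (-4.59) and Ctla2a (-4.14) were the lowest. A single lymphoid-like well of tumour 3 held 34.4% of the Cpm transcripts, and for Stc1 the highest well, also lymphoid-like in tumour 3, held 22.3%. Car3 had transcripts in 16 wells, and 60.03% of Ttn came from 1.

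Ptges wells were led by Slpi, a secreted protease inhibitor (log2 3.61, SE 0.29, adjusted p = 0.00011), with Col7a1 (2.91), 1810011O10Rik (2.53) and Cxcl10 (2.30), while Inmt (-2.13), Prkar2b (-1.72) and Gucy1a3 (-1.68) were lower. Ptgs2 wells were led by the chemokine Cxcl10 (log2 2.36, SE 0.25, adjusted p = 0.00578), of which 33.9% lay in 1 cycling well. Bmp2 (1.78), Ccrn4l (1.72), Ptx3 (1.72) and Enc1 (1.69) followed, and Coch had 0 transcripts in Ptgs2 wells, against 259 in the others, from 18 wells in all. Ptgis wells were led by Wisp2, a matricellular protein (log2 2.94, SE 0.20, adjusted p = 7.65e-05), with Npy1r (2.56), Prg4 (2.48), Anxa8 (2.27) and Kcnn3 (2.25). Coch and Car3 had 2 and 3 transcripts in Ptgis wells. Hpgd wells, in 2 tumours, were led by Tnmd (4.12) and Glp2r (3.9), on 32 and 26 transcripts, and then Cmpk2 (2.91), Col11a1 (2.68) and Ptpre (2.60). Acta1, Rgs16 and Ttn had 0 transcripts there, against 1036, 414 and 281 in the others. A single well of tumour 4 held 38.6% of the Acta1 transcripts.

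A list of 12 immediate-early and stress genes, whose RNA is known to rise during tissue dissociation, was counted beside the enzymes. In wound-like wells 11 of the 12 were lower and 1, Hspb1, was higher (median log2 -1.26), where 7.66% of all genes were called lower and 5.33% higher. The lower count was 7 without tumour 4 and 9 with DESeq2 or without the block. In Ptgs1 wells 6 were lower (Fosb, Jun, Egr1, Atf3, Ier2 and Hspa1b) and none higher, where 2.17% of all genes were called lower and 2.1% higher. DESeq2 gave 3 lower and none higher there, and 1 was higher at an unadjusted p under 0.05. In Ptgs2 wells none was called by edgeR, with 4 lower at an unadjusted p under 0.05 and 1 by DESeq2. Of 12 NF-kB and interleukin 1 genes, 7 were higher and 1 lower in inflammatory-like wells (median log2 1.08), where 1.41% of all genes were called higher and 0.941% lower. Those wells were picked by Il6, Lif, Cxcl1, Cxcl5, Ccl2 and Ccl7, themselves inflammatory genes, so the count is no independent support for the group's name. DESeq2 gave 5 higher and none lower. With a higher marker score none of the 12 was called, 2 were higher with Leiden clusters, and 4 without the block, tumour 2 or tumour 4. In Ptgs2 wells none was called by either tool (median log2 0.38). There 5 were higher at an unadjusted p under 0.05, which 854 of 8844 genes reached in either direction. Over all genes tested the median log2 was -0.09 in the wound-like test and -0.01 in the inflammatory-like test.

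The genes whose mean level over 14 cell groups was most like that of each member, among 6213 genes, were named as a description; the groups share libraries and some hold few wells. For Ptgs1 these were Mpzl1 (r = 0.897), Twsg1 (0.885) and Kctd5 (0.871), and for Ptgs2 they were Vegfa (0.877), Pdpn (0.869) and Cxcl5 (0.851), the last a marker of the inflammatory list. For Ptges they were Cp (0.933), Pmepa1 (0.895) and Dusp18 (0.877). Ptges3 was closest to Hnrnpd (0.988) and Csnk2a1 (0.981), Ptgis to AW551984 (0.928), Epdr1 (0.907) and Ndn (0.901), and Hpgd to Stard6 (0.936), Kctd8 (0.931) and Mab21l2 (0.919).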

How the data were processed

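Gene by well tables were analysed for 4 plates of 384 wells, 1 plate per tumour. The deposited values are estimated counts of transcripts, for which the authors corrected the number of distinct molecular identifiers, out of 4096 possible, for saturation: undoing that step gave whole numbers to within 0.00486. BWA and the mm10 genome are named in the submitters' processing notes, with versions not given in the sources used here. Spike-ins were left out.

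Wells were kept from 1000 transcripts and up to 30% mitochondrial transcripts (740 of 1536, medians of 5552 to 9474), so a level rests on sums of 395592 to 3114275 transcripts per tumour. Wells were grouped by standardised sums of marker genes (92 of 102 in the tables; lineages at 2 SD, fibroblast states at 1 SD, highest score first), and no doublets were removed. Counts were summed per tumour and group with at least 10 wells, rounded and tested with edgeR 4.0.16 (quasi-likelihood, TMM, filterByExpr, the tumour as a block, Benjamini-Hochberg over all genes; R 4.3.3), without the marker genes and the splitting enzyme. The block pairs 2 sums from the same plate. Scripts were tested on simulated data. DESeq2 1.42.0, other filters, groupings and scalings, and each tumour left out were tried as alternatives.

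Intervals and floors of 3 counts cover counting error only. Genes named beside an enzyme are the 5 with the largest fold change higher and the 3 lower with adjusted p under 0.05, the same direction in every tumour and at least 0.5 transcripts per 10000 on the higher side. The enzymes and all lists were chosen with earlier results of these data known. Promoters come from RefSeq (GRCm38.p6; 6 of the 7 enzymes matched), gene positions from GRCm38.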

Additional observations from a re-analysis of the deposited data

Results flagged for a closer look

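The lowest or highest tumour stood far from the others in 3 of 38 combinations of enzyme and cell group examined, a rate near the 1 in 20 that chance gives. Ptges in telocyte-like wells was at 2.67 per 10000 in tumour 3, with the next at 1.53. Ptges3 in wells with no state was at 2.13 in tumour 1, with the next at 1.52. Ptgis in smooth muscle-like wells was at 0.907 in tumour 3 and had no transcript in the other 3 tumours. A floor of 3 counts allows up to 0.395, 0.979 and 0.798 per 10000 in tumours 1, 2 and 4, so this distance rests on low depth.

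The 113 wells left out for mitochondrial RNA, 87 of them from tumour 1, held transcripts of 5 enzymes above the limit that a count of 0 allows: 13 of Ptgs1, 4 of Ptgs2, 7 of Ptges, 16 of Ptges3 and 4 of Ptgis. These came to 0.582, 0.179, 0.313, 0.716 and 0.179 per 10000.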

How the results depend on the processing

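No called value changed direction under any alternative. Of calls among fibroblast states, 7 higher and 4 lower, a higher marker score left 3 and 2, where 4 of 7 states and 20 of 38 tests of members could be fitted. No filter on low counts gave 9 and 7, over 49 tests, and totals without TMM 9 and 5. Leaving out single tumours gave 2 to 6 higher and 1 to 6 lower, where the counts without tumour 1 cover only the tests it entered. Of calls in enzyme-carrying wells, 5 higher and 1 lower, leaving out single tumours gave 2 to 3 and 0 to 1. The lower count was 2 with Rn45s left out, with wells of at least 2000 transcripts, with sums of at least 5 wells and with wells of 2 red cell markers left out, and 3 with no filter on low counts. Without the tumour as a block (no replicate block), 1 higher call was left in enzyme-carrying wells, Ptges in Ptgs1 wells, and among states 5 higher and 3 lower calls were left. In Ptgs1 wells Ptgs2 then had an adjusted p of 0.282, and in Ptgs2 wells Ptgs1 had 0.545. Outside the fibroblasts the 2 lower calls became 1 with DESeq2, and 7 and 9 with sums of at least 3 and 5 wells, which admit pericyte-like and Cajal-like wells. Ptges3 over tumours was 1.69 per 10000 with Rn45s left out, against 1.47. The cause of these changes was not tested beyond what each alternative leaves out.

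The number of genes called moved more. Wound-like wells had 1116 (689 with DESeq2 to 1317 with Leiden clusters), telocyte-like 492 (244 with sums of 3 wells to 500), adventitial-like 386 (163 with Leiden clusters to 772 with no filter), lamina propria-like 297 (140 without tumour 4 to 730 without tumour 1) and inflammatory-like 210 (10 with the higher marker score to 531 with no filter). Matrix-contractile-like wells had 152 (193 with DESeq2 to 1280 with Leiden clusters), trophocyte-like 113 (7 without the block to 118) and smooth muscle-like 527 (199 with DESeq2 to 800 with Leiden clusters). Ptgs1 wells had 378 (103 without tumour 4 to 892 with no filter), Ptgis wells 370 (150 thinned to 807 with no filter), Hpgd wells 80 (13 without the block to 164), Ptges wells 52 (0 without the block to 318 with no filter) and Ptgs2 wells 41 (5 without the block to 366 with no filter).

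Leaving out a tumour could not be fitted for tests with 2 tumours. Hpgd and Ptgds rest on 85.0 and 1 transcripts over all kept wells, and states set by a score share wells near its threshold.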
